A study of Rattus norvegicus with 38 samples.

Results

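The DMRs (differentially methylated regions) described here lie in or near 5 rat genes of NF-kB and TNF signalling: Tnfrsf1b, Traf3, Map3k8, Card10 and Tnfaip2. They number 6 of the 3417 deposited DMRs, since the gene annotation of the study's supplementary tables assigned a further DMR to Tnfaip2. The tables list DMRs by their weight in the study's PCAs. All 6 were listed for their weight on PC4 of δ methylation, the component on which most LBN pups stood apart from controls, and Tnfrsf1b and Traf3 were listed for the age component of the levels as well. The contrast between LBNs and controls therefore chose the members, and it is described below without a test. For Tnfrsf1b and Traf3 the age change also went untested.

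Each of 19 Sprague-Dawley rat pups gave a buccal swab on postnatal day 2 (P2) and another on P10, 38 samples in all, and DNA methylation was measured by RRBS (reduced representation bisulfite sequencing, which reads CpGs near MspI sites). After the P2 swab, pups were randomized to control dams in standard bedded cages (10 pups) or to cages with limited bedding and nesting material (LBN, 9 pups) until P9. There were 6 controls and 5 LBNs in cohort 1, and 4 of each in cohort 2. The labels name no transgene or drug for any group, and pups of several litters were mixed between dams, so pups of 1 group may have shared a dam. The level of a DMR is the percentage of methylated reads over its CpGs, and δ methylation is log2(P10/P2) of the levels of 1 pup. A swab holds epithelial cells and leukocytes, and a change in their shares cannot be told apart from a change of methylation within cells. The files hold no expression values against which the cell types could be checked.

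NF-kB transcription factors are held in the cytoplasm by inhibitor proteins and are released when receptors of the TNF family, Toll-like receptors or antigen receptors recruit adaptors and kinases. In the mouth, the pathway drives inflammatory genes in both epithelial cells and leukocytes. TNF receptors pass their signal through TRAF adaptors, scaffolds with CARD domains join other receptors to the same kinases, and the target genes include feedback inhibitors of the pathway itself.

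The DMRs were given on rn6. That of Tnfrsf1b, the gene of the TNF receptor that is prominent on leukocytes, was a single CpG in an intron at chr5:163140329-163140330. That of Traf3, an adaptor that keeps the non-canonical NF-kB pathway in check, was annotated as intergenic at chr6:135603480-135603489. The DMR of Map3k8, a kinase that links TNF and Toll-like receptors to ERK, was intronic at chr17:56124890-56124895. Card10, a scaffold that joins receptors to NF-kB outside lymphocytes, had a single exonic CpG at chr7:120011332-120011333. Tnfaip2, a gene induced by TNF, had a pair of single intronic CpGs, the first at chr6:135892327-135892328 and the second 186 bases below it at chr6:135892141-135892142. The Traf3 DMR lay 288652 bases from the second Tnfaip2 DMR. None of the 6 was annotated as a promoter.

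RefSeq promoters (250 bases before to 50 after the gene start, build GRCr8) matched all 5 genes and are given only as context, because the DMRs lie elsewhere and their own sequence on rn6 was not analysed here. They held 12 CpGs for Tnfrsf1b, 57 for Traf3, 26 for Map3k8, 38 for Card10 and 13 for Tnfaip2, where the median of 33469 promoters was 7. The MspI site CCGG occurred 0, 3, 4, 5 and 1 times in that order, and 51.4% of all promoters held at least 1. The consensus motif of NF-kB, searched on both strands, was found in 2 of the 5, those of Traf3 and Map3k8, and in 4.18% of all promoters. The stretches with the match are shown because these genes act in the pathway whose motif they hold, with the matched bases in capitals. The first covers the 60 bases before the Traf3 start (chr6:136026989-136027048, plus strand) and the second the 30 bases around the Map3k8 start (chr17:58078165-58078194, plus strand).
Traf3: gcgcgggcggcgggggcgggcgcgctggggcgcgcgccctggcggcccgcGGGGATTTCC
Map3k8: gtgggaggacGGAATTTCCCatcgcggggg
A match of letters is a description of the sequence and does not show that a factor binds there.

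With age, methylation at Card10 and Map3k8 fell and at the first Tnfaip2 DMR rose. The study had selected all DMRs on a P2 to P10 difference within these pups, so the counts are read only against the share of all DMRs that passed. Among the 4 members whose age change the rule did not use, 2 fell and 1 rose (limma on log-odds of the level with the pup as a block, Benjamini-Hochberg adjusted over 3417 DMRs at 0.05). Over all DMRs, 30.0% fell and 13.7% rose. On P2 the member means ran from 17.9% to 52.7%, and all but Card10 lay below the median of 51.0% over all DMRs. Card10, Map3k8 and the first Tnfaip2 DMR passed in control pups alone (3 of 4 members), as did 27.6% of all DMRs, and none passed in LBN pups alone, where 5.33% of all DMRs did, a split that follows the contrast by which the members were chosen.

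At Card10, the level fell from 52.7% ± 17.3 on P2 to 29.9% ± 17.2 on P10 (SD, n = 19 pups), by 1.52 on the log2 odds scale (standard error 0.26, adjusted p = 7.72e-05). The level was lower on P10 in 19 of 19 pups, as it was at 1.29% of all DMRs. In cohort 1, the 6 controls ran from 55.3% to 72.9% on P2 (median 66.0%) and from 20.8% to 50.6% on P10 (median 35.4%). The LBN pups of cohort 1 (LBN2, LBN3, LBN4, LBN9 and LBN12, the order used throughout) stood at 62.8%, 72.7%, 51.8%, 42.2% and 62.3% on P2 and at 38.5%, 67.6%, 47.4%, 26.6% and 52.1% on P10. The largest falls in this cohort were thus among controls, while the P2 levels of the 2 groups overlapped. In cohort 2, the controls (C1, C5, C8 and C11) fell from 53.3%, 39.5%, 63.6% and 58.6% to 10.8%, 13.6%, 14.3% and 8.79%. Its LBN pups (LBN2, LBN4, LBN9 and LBN11) had 31.0%, 18.3%, 31.1% and 20.5% on P2 and 27.7%, 12.9%, 15.7% and 13.4% on P10. Before randomization, every pup later assigned to LBN in cohort 2 was thus below every control, which was the case at 13.3% of all DMRs.

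Map3k8 fell from 37.8% ± 10.5 to 22.1% ± 8.96 (SD, n = 19), by 1.12 on the log2 odds scale (standard error 0.24, adjusted p = 0.000745), and was lower on P10 in 18 pups. Controls of cohort 1 ran from 30.4% to 52.9% on P2 (median 39.3%) and from 8.87% to 26.5% on P10 (median 21.8%). In the same cohort, LBN pups went from 51.6%, 45.2%, 40.0%, 40.5% and 14.8% to 23.5%, 30.7%, 37.4%, 11.05% and 45.5%. The single pup that rose was LBN12, which had the lowest P2 level and the highest P10 level of all 19. In cohort 2, controls went from 33.5%, 36.6%, 31.9% and 53.8% to 12.0%, 16.9%, 19.8% and 16.0%. LBN pups there went from 27.3%, 48.8%, 28.7% and 23.8% to 22.7%, 25.0%, 23.0% and 16.0%. All 8 pups of cohort 2 fell, and the groups overlapped at both ages.

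The first Tnfaip2 DMR rose from 36.3% ± 10.0 to 48.6% ± 9.22 (SD, n = 19), by 0.76 on the log2 odds scale (standard error 0.23, adjusted p = 0.00875), and was higher on P10 in 15 pups. In controls of cohort 1 it ran from 16.2% to 43.5% on P2 (median 30.5%) and from 40.6% to 64.4% on P10 (median 54.8%). LBN pups of this cohort had 16.9%, 51.3%, 43.5%, 38.6% and 45.9% on P2 and 50%, 36.4%, 44.3%, 45.1% and 34.4% on P10. LBN2 rose like the controls, LBN3 and LBN12 were lower on P10, and the remaining pair rose by less than any control of the cohort. Cohort 2 controls had 43.8%, 30.6%, 32.9% and 43.0% on P2 and 56.1%, 58.0%, 42.7% and 38.1% on P10. Its LBN pups had 40.6%, 32.3%, 47.3% and 43.1% on P2 and 37.4%, 60%, 50.5% and 49.0% on P10, so that the groups overlapped at both ages. With cohort 2 alone the age change was 0.57 and did not pass (adjusted p = 0.195, limma).

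The second Tnfaip2 DMR had a level of 33.0% ± 9.70 on P2 and 35.3% ± 9.25 on P10 (SD, n = 19) and did not pass the age test (difference 0.15 on the log2 odds scale, standard error 0.20, limma adjusted p = 0.589). Controls of cohort 1 ran from 18.0% to 37.5% on P2 (median 26.9%) and from 27.1% to 42.9% on P10 (median 38.01%), and LBN pups had 18.6%, 40.4%, 33.7%, 33.0% and 27.6%, then 19.7%, 35.2%, 26.7%, 20.3% and 21.4%. In cohort 2, controls had 40.7%, 32.6%, 51.5% and 54.1%, then 32.6%, 45.8%, 35.2% and 34.8%. LBN pups of cohort 2 had 28.6%, 37.3%, 38.2% and 30.6%, then 39.9%, 51.2%, 48.1% and 40.5%. The sign of the change was thus mostly up in cohort 1 controls and cohort 2 LBNs and mostly down in the other two groups. Although only 186 bases apart, the 2 Tnfaip2 CpGs changed in the same direction in 13 of 19 pups. The first exceeded the second by 3.29 ± 9.60 percentage points on P2 (higher in 12 pups) and by 13.3 ± 9.63 on P10 (higher in 18 pups). Within 50 kb of the pair lay 2 further deposited DMRs, and no other member had a deposited DMR that near. One, 1934 bases from the first, went from 20.4% ± 5.61 to 29.1% ± 6.50 and was lower on P10 in 3 pups. The other, 14161 bases from the second, went from 70.8% ± 5.60 to 83.1% ± 5.48 and was lower on P10 in 1 pup.

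For Tnfrsf1b and Traf3 the age change is a description only. At Tnfrsf1b the level was 30.7% ± 9.94 on P2 and 15.6% ± 8.36 on P10 (SD, n = 19), lower in 17 pups. In cohort 1, controls spanned 30.4% to 53.3% (median 37.0%) and then 4.41% to 16.5% (median 13.0%), and LBN pups had 38.1%, 31.4%, 32.5%, 27.3% and 12.2%, then 11.8%, 29.9%, 26.0%, 21.4% and 35.7%. On P10, 4 of these 5 LBN pups were above every control of the cohort. In cohort 2, controls had 33.3%, 22.9%, 26.8% and 25.7%, then 2.35%, 8.06%, 14.9% and 15.2%, and LBN pups had 32.8%, 24.6%, 18.0% and 18.4%, then 14.9%, 16.7%, 7.94% and 21.1%. There the groups overlapped more, with 2 of 4 LBN pups above every control on P10.

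At Traf3 the level was 17.9% ± 8.93 on P2 and 10.2% ± 4.07 on P10 (SD, n = 19), lower in 15 pups. Controls of cohort 1 spanned 12.2% to 32.0% (median 24.6%) and then 7.86% to 16.1% (median 12.5%), and its LBN pups had 33.8%, 12.9%, 8.09%, 24.8% and 10.9%, then 16.0%, 8.67%, 8.12%, 13.0% and 3.95%. In cohort 2, controls had 14.8%, 24.1%, 14.6% and 16.5%, then 3.33%, 2.75%, 6.85% and 11.1%. LBN pups of cohort 2 had 16.8%, 11.02%, 7.08% and 1.45%, then 14.3%, 9.52%, 10.7% and 13.0%. The P2 level of LBN11 in that cohort, 1.45%, was the lowest member value of all.

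**Figure D1:**
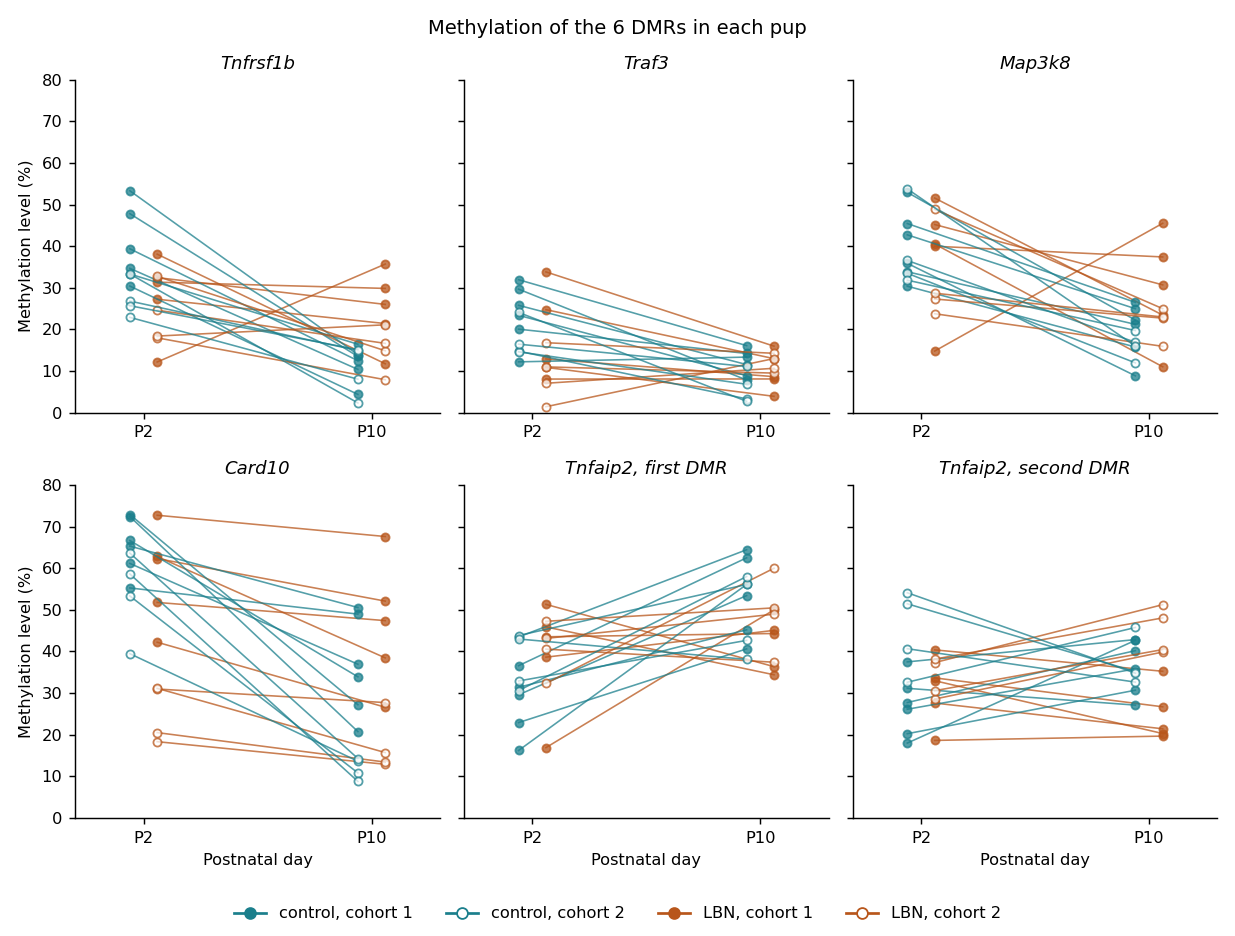
Methylation level (%) of the 6 DMRs on P2 and P10, with 1 line per pup, filled points for cohort 1, open points for cohort 2, and control and LBN pups in separate colours. Lines slope down at Card10 in all 19 pups and mostly down at Tnfrsf1b, Traf3 and Map3k8, and at the first Tnfaip2 DMR they slope up in 15 pups.

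Cohorts differed in level at Card10. On P2, Card10 was at 62.3% ± 9.57 in cohort 1 (SD, n = 11) and 39.5% ± 17.3 in cohort 2 (SD, n = 8), a difference of −1.36 (cohort 2 minus cohort 1) on the log2 odds scale with experience as a covariate (standard error 0.30, limma adjusted p = 0.00612). It was the 1 member of 6 that passed this test, in which 9.31% of all DMRs were lower and 3.34% higher in cohort 2. The low P2 mean of cohort 2 came with the 4 pups later assigned to LBN, at 25.2% ± 6.78, against 53.8% ± 10.4 in its controls. In cohort 1 these were 58.4% ± 11.7 and 65.6% ± 6.75. The same P2 levels enter the δ methylation for which Card10 was listed, so the test is not independent of that choice. On P10, Card10 remained apart, at 41.0% ± 13.8 in cohort 1 and 14.7% ± 5.69 in cohort 2, a comparison that was not tested. Differences at the other 5 DMRs were −0.57 at Tnfrsf1b, −0.85 at Traf3, −0.21 at Map3k8, 0.34 at the first and 0.70 at the second Tnfaip2 DMR, with limma adjusted p from 0.0929 to 0.684. A cohort stands for pups collected together, and handling, sequencing and litter cannot be told apart within it.

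In δ methylation, none of the 6 members passed the test between cohorts (limma with experience as a covariate, adjusted over 3354 DMRs), while 6.20% of all DMRs did. At an unadjusted p under 0.05 there was 1, Card10, as were 21.1% of all DMRs, and its δ methylation was lower in cohort 2 by 0.75 (−0.75, standard error 0.24, adjusted p = 0.0718). Its δ methylation was −0.67 ± 0.55 in cohort 1 (SD, n = 11) and −1.37 ± 0.95 in cohort 2 (SD, n = 8). Mean δ methylation over all 3354 DMRs was itself lower in cohort 2, at −0.25 ± 0.11 against −0.02 ± 0.07 in cohort 1.

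Early-life experience was the contrast that chose the DMRs, so the following values describe how the members differ in it. At the 4 members with positive weight, the mean was lower on P10 than on P2 in controls, and by less in LBNs. Mean δ methylation at Tnfrsf1b was −1.79 ± 0.93 in controls (SD, n = 10) and −0.40 ± 0.94 in LBNs (SD, n = 9), a difference of 1.39. At Traf3 it was −1.28 ± 0.93 and −0.08 ± 1.37, a difference of 1.20. Card10 had −1.42 ± 0.85 and −0.46 ± 0.31, which differ by 0.96. Map3k8 had −1.15 ± 0.47 and −0.46 ± 0.95, which differ by 0.68. Among the 3354 DMRs without a level of 0, 2 had a larger difference than Tnfrsf1b, 4 than Traf3, 7 than Card10 and 37 than Map3k8.

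The Tnfaip2 DMRs went the other way. Controls had a mean δ methylation of 0.68 ± 0.51 at the first and LBNs 0.22 ± 0.65, a difference of −0.46, and 95 DMRs lay below it. The second had 0.18 ± 0.60 and 0.02 ± 0.43, a difference of −0.16, with 806 DMRs below it. Over all 3354 DMRs the median difference was −0.03, and 1467 were higher in LBNs. In the limma test of the same contrast over all DMRs, 0% passed and 109 (3.25%) had an unadjusted p under 0.05. With cohort 1 alone, 0% passed and 5.86% had an unadjusted p under 0.05. With cohort 2 alone, 0.325% passed and 23.0% had an unadjusted p under 0.05.

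**Figure D2:**
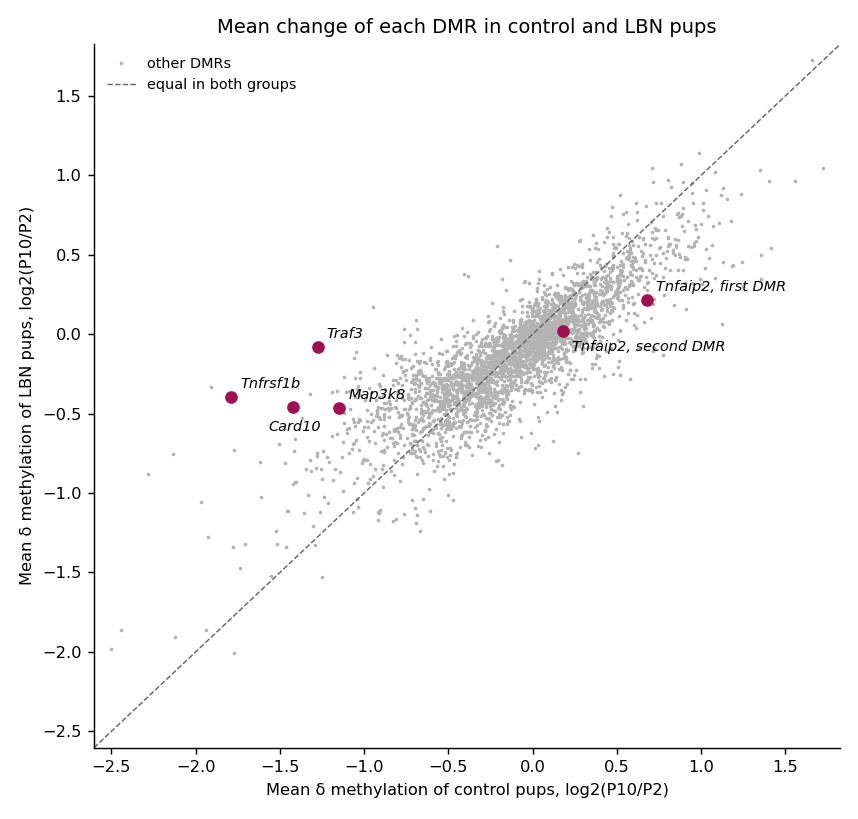
Mean δ methylation, log2(P10/P2), of the 10 control pups (x axis) and the 9 LBN pups (y axis), with 1 point per DMR without a level of 0 and the 6 members in colour. Tnfrsf1b, Traf3, Card10 and Map3k8 lie above the dashed line of equality by 1.39, 1.20, 0.96 and 0.68, and the Tnfaip2 DMRs lie below it by smaller distances.

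PC4 was computed again from δ methylation with 1 percentage point added to each level, and 190 DMRs had a weight above 0.025 and 224 one below −0.025. The members had been listed for this weight in the same pups, so ranks near either end follow from that choice. The weights of Tnfrsf1b (0.0732), Map3k8 (0.0638), Card10 (0.0416) and Traf3 (0.0381) ranked 5, 9, 40 and 55 from the top. The first Tnfaip2 DMR (−0.0509) ranked 26 from the bottom. The second (−0.0256) ranked 211 and was just inside the threshold, with a δ methylation on that scale of 0.17 ± 0.58 in controls and 0.02 ± 0.42 in LBNs. Just outside was a CpG at chr3:172774807-172774808 (−0.0250), with −0.12 ± 0.20 in controls and −0.33 ± 0.41 in LBNs.

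Within the cohorts, the members behaved unequally. LBN minus control δ methylation was 1.65 in cohort 1 and 1.06 in cohort 2 at Tnfrsf1b, and 0.66 and 0.73 at Map3k8. At Card10 it was 0.54 and 1.62, and at Traf3 0.16 and 2.56, so that at these genes the larger part came from cohort 2. At the first Tnfaip2 DMR it was −0.71 and −0.11, and at the second −0.78 and 0.67, where the cohorts had opposite signs. δ methylation of every LBN pup lay above that of every control in cohort 2 at 2 of the 4 positive members, Traf3 and Card10, where 6.95% of all DMRs did so. In cohort 1 this held for 0 of the 4, against 0.328% of all DMRs. The reverse order without overlap, LBN below control, held for neither Tnfaip2 DMR in either cohort, against 0.209% of all DMRs in cohort 1 and 6.50% in cohort 2.

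Single pups carried part of these means. Without LBN12 of cohort 1, the difference at Map3k8 was 0.42 rather than 0.68, and at Tnfrsf1b 1.15 rather than 1.39. Without LBN11 of cohort 2, whose P2 level was 1.45%, the difference at Traf3 was 0.79 rather than 1.20. At the second Tnfaip2 DMR it was −0.05 without control C9 of cohort 1, −0.07 without LBN9 of cohort 1, −0.25 without control C11 of cohort 2 and −0.25 without control C8 of cohort 2, against −0.16 with all pups. Leaving out any 1 pup kept the difference between 0.81 and 1.10 at Card10 and between −0.63 and −0.34 at the first Tnfaip2 DMR.

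**Figure D3:**
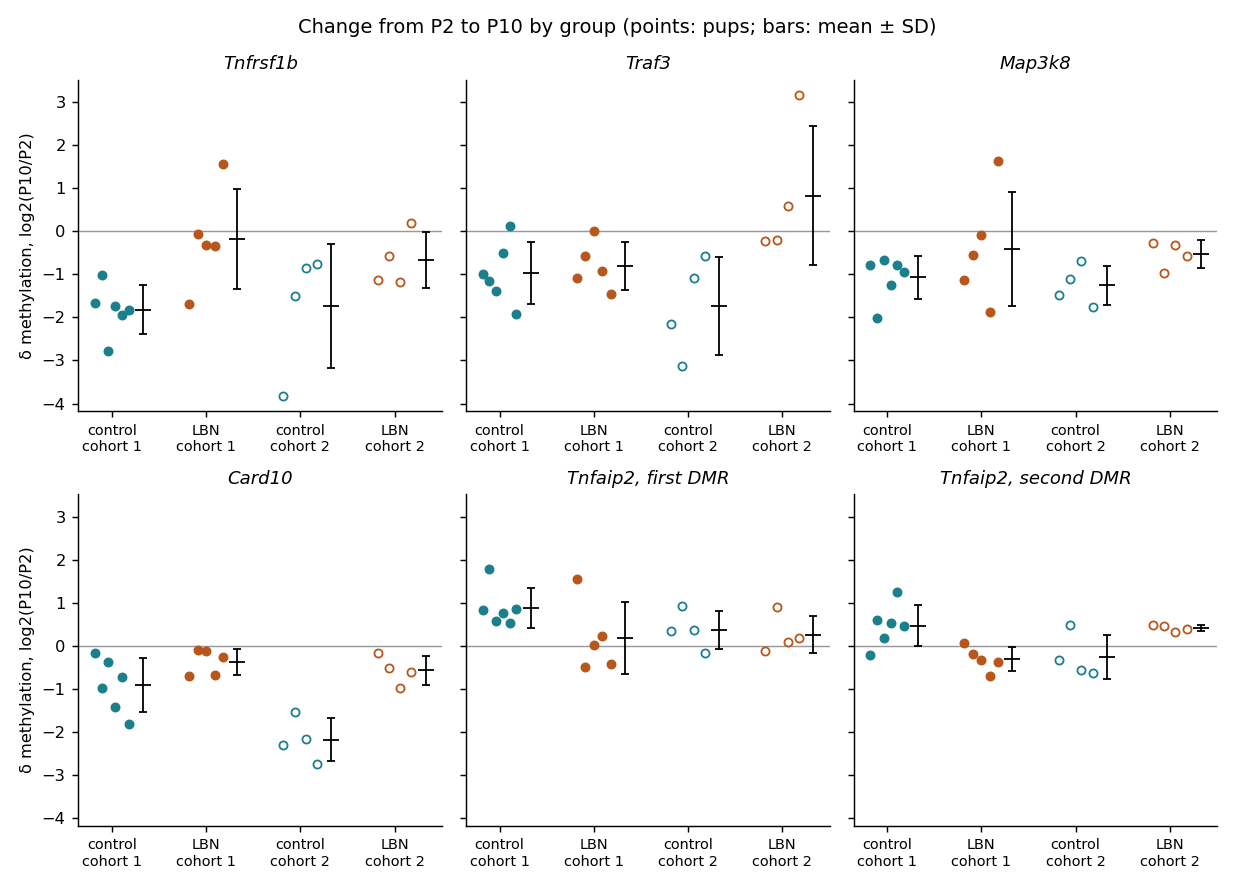
δ methylation, log2(P10/P2), of each pup (points) at the 6 DMRs by cohort and experience, with the group mean ± SD beside them. At Traf3 and Card10 the LBN pups of cohort 2 do not overlap its controls, and at the second Tnfaip2 DMR the LBN pups lie mostly below controls in cohort 1 and mostly above them in cohort 2.

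Since δ methylation subtracts the P2 level, the difference in it can be divided into what was present on P2, before the experience, and what was present on P10. On the log2 scale of the levels, LBNs were below controls on P2 by 0.44 at Tnfrsf1b (−0.44), by 0.93 at Traf3 (−0.93), by 0.22 at Map3k8 (−0.22) and by 0.61 at Card10 (−0.61). Over both cohorts, the P2 part made up 77.7% of the difference in δ methylation at Traf3, 63.5% at Card10, 32.6% at Map3k8 and 31.9% at Tnfrsf1b. The members were listed for δ methylation that holds these same P2 levels, so the listing itself favours a P2 part. The part was not computed for other DMRs, and its size is therefore no result about the members. Without LBN12 of cohort 1 the P2 difference at Map3k8 was −0.08 and its part 18.1%, and without LBN11 of cohort 2 the P2 difference at Traf3 was −0.57 and its part 72.0%. With each pup left out in turn, the part at Card10 ran from 48.9% (without LBN4 of cohort 2) to 78.6% (without LBN3 of cohort 1). At Traf3 it ran from 68.1% (without LBN12 of cohort 1) to 91.1% (without control C5 of cohort 2). The cohorts differed in these parts. At Card10 the P2 and P10 differences were −0.19 and 0.35 in cohort 1, a P2 part of 34.7%, and −1.11 and 0.51 in cohort 2, a P2 part of 68.7%. At Traf3 they were −0.54 and −0.38 in cohort 1, where LBNs were lower at both ages, and −1.37 and 1.19 in cohort 2. The P2 part at Traf3 was 53.6% in cohort 2. In cohort 1 its difference in δ methylation, 0.16, was smaller than the P2 difference, so a part has no meaning there. At Tnfrsf1b the P2 and P10 differences were −0.56 and 1.09 in cohort 1 and −0.24 and 0.82 in cohort 2. At Map3k8 they were −0.16 and 0.51, then −0.30 and 0.43. In percentage points, the P2 difference between LBNs and controls was −17.2 at Card10 and the P10 difference 6.96, whereas at Tnfrsf1b they were −8.65 and 9.43. At the first Tnfaip2 DMR, where LBNs were above controls by 0.27 on P2 and below by 0.19 on P10 (−0.19), the P2 part was 58.6%. Its P2 and P10 differences were 0.36 and −0.35 in cohort 1 and 0.12 and 0.02 in cohort 2, so that the lower P10 level of LBNs came from cohort 1. Over both cohorts its P2 difference was 0.42 without LBN2 of cohort 1 and 0.16 without control C4 of cohort 1. At the second, the P2 and P10 differences were 0.19 and −0.58 in cohort 1 and −0.39 and 0.28 in cohort 2, opposite signs in each cohort, and the pooled P2 difference of −0.03 changed sign when single pups were left out.

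**Figure D4:**
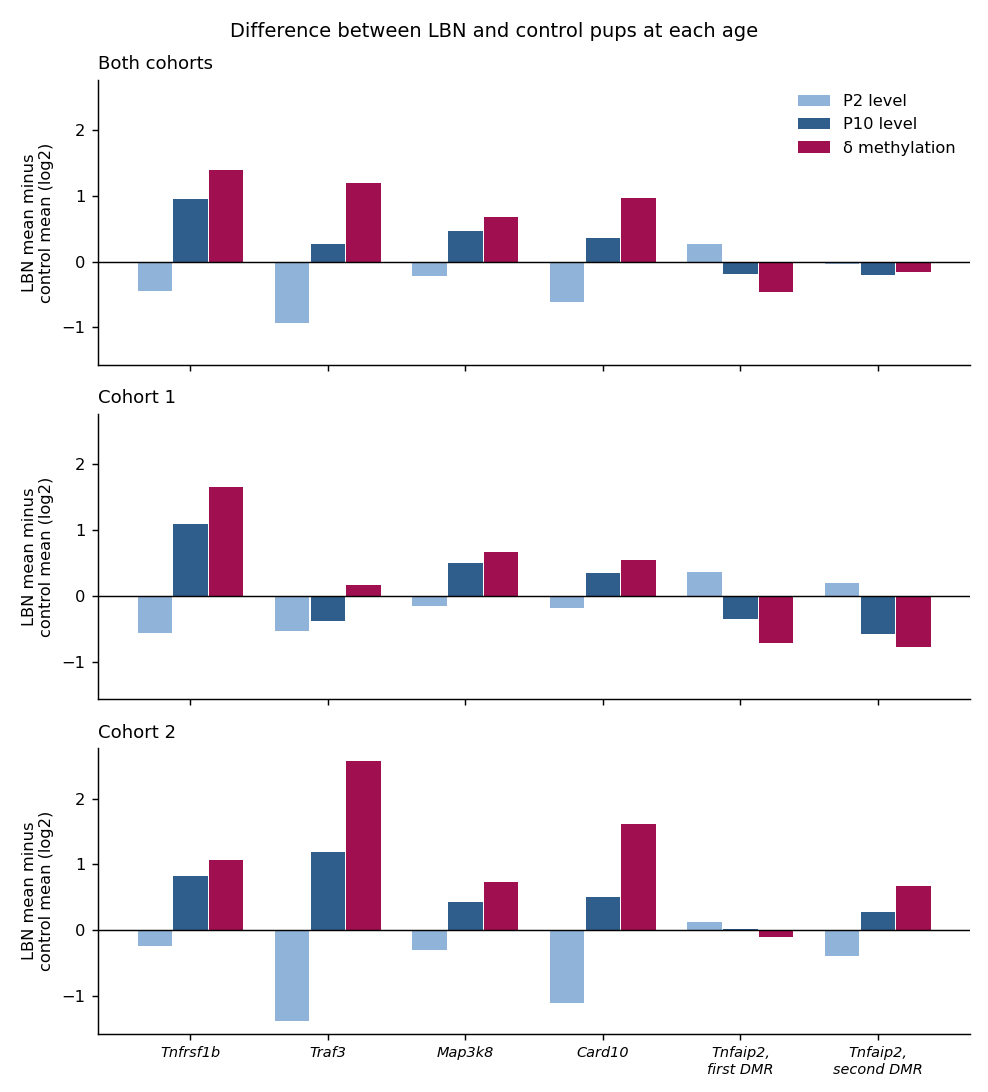
Difference between LBN and control means (log2) in the P2 level, the P10 level and δ methylation at the 6 DMRs. Panels show both cohorts (top), cohort 1 (middle) and cohort 2 (bottom), without error bars. The spread of δ methylation between pups stands in its plot by group, and that of the levels only in the plot of single pups. At Card10 the P2 bar is longer than the P10 bar in cohort 2 and shorter in cohort 1, and at Tnfrsf1b and Map3k8 it is shorter in both cohorts.

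δ methylation of the members was compared over the 19 pups, with the caution that they had been listed for weights on 1 component of these same values. After the cohort mean was removed, Pearson's r lay between 0.17 and 0.51 for the 6 pairs of positive members, with the highest value between Tnfrsf1b and Map3k8. Once the mean of each experience within each cohort was removed, which takes out the contrast that chose them, r lay between −0.15 and 0.34, below 0 in 2 of the 6 pairs. With all DMRs, the 95th percentile of r by cohort was 0.35 for Tnfrsf1b, 0.46 for Traf3, 0.49 for Map3k8 and 0.62 for Card10. Tnfrsf1b with Map3k8 (0.51) lay above that of both. Tnfrsf1b with Traf3 (0.39), Tnfrsf1b with Card10 (0.40) and Map3k8 with Card10 (0.50) lay above that of the first-named member only. Traf3 with Map3k8 (0.17) and Traf3 with Card10 (0.45) lay below that of both. Map3k8 and the first Tnfaip2 DMR had r = −0.56 by cohort and −0.50 by group. The 2 Tnfaip2 DMRs had r = 0.44 by cohort and 0.32 by group. All of these come from the same 38 libraries, and they are descriptions.

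Among DMRs with a gene in the same tables, those closest in δ methylation over the 19 pups (Pearson's r after removal of the cohort mean) were found. For Card10 they were DMRs of Sec24b (r = 0.86), Sh2d5 (0.84) and Morn3 (0.82), and for Map3k8 those of Lrrfip1 (0.84), Pdcd6ip (0.73) and RGD1307603 (0.71). For Tnfrsf1b they were Sulf2 (0.74), AABR07027039.1 (0.71) and Dusp7 (0.70), and for Traf3 Fbxo9 (0.74), Aqp3 (0.73) and Ccdc85c (0.71). For the first Tnfaip2 DMR they were Gdnf (0.70), Tcf4 (0.61) and Mfap2 (0.61), and for the second Myl2 (0.79), Zbtb46 (0.73) and Hmga1 (0.71). None of these 18 was another member or a gene of the wider pathway list. The candidates were 421 DMRs, or 420 for Tnfaip2, beside which the 6 members and the 11 DMRs of that list are few. Their absence is therefore no result about the members. Aqp3, named for Traf3, is one of the epithelial genes described below. All candidates had been listed for their weight on PC4 or on the age component in these same pups.

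Other genes of the pathway had 11 DMRs in the tables, from 10 genes. Of the 7 whose age change had not been used to list them, 3 fell and 2 rose with age (limma, adjusted over 3417 DMRs), against the 30.0% and 13.7% of all DMRs given above. Among regulators, the exonic DMR of Bcl3, an atypical inhibitor protein that binds NF-kB in the nucleus, rose from 12.1% ± 4.69 to 28.1% ± 8.33 (SD, n = 19, adjusted p = 1.33e-05), and no pup was lower on P10. Otud7a, a deubiquitinase, rose from 15.8% ± 3.75 to 22.4% ± 5.60 (adjusted p = 0.00965), and Peli2, a ubiquitin ligase of Toll-like receptor signalling, was at 50.1% and 47.7% and did not pass (adjusted p = 0.724). Map3k5, a stress kinase, fell from 70.4% ± 11.9 to 52.7% ± 15.2 (adjusted p = 0.0036). Nlrp1a, an inflammasome sensor, fell from 20.9% ± 9.40 to 13.5% ± 11.2 (adjusted p = 0.0217), and Cd83, a marker of mature dendritic cells, from 44.8% ± 17.3 to 30.9% ± 11.4 (adjusted p = 0.0093). Gadd45b, a stress gene induced by NF-kB, was at 39.9% and 34.6% (adjusted p = 0.186).

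The other 4 pathway DMRs had been listed for their age weight and are described only. The intronic DMR of Bcl3 went from 28.3% ± 5.39 to 58.5% ± 8.43 and was lower on P10 in 0 of 19 pups. Traf1, an adaptor of TNF receptors, went from 40.1% ± 11.2 to 18.0% ± 8.65 and was lower in 19 of 19. Icam1, the adhesion molecule, went from 11.4% to 17.7% and the stress kinase Map3k6 from 26.3% to 33.1%. Mean δ methylation was −1.30 ± 0.61 in controls and −1.21 ± 0.76 in LBNs at Traf1. At Bcl3 it was 0.99 ± 0.26 and 1.14 ± 0.18 at the intronic DMR and 1.56 ± 0.99 and 0.97 ± 0.44 at the exonic DMR, which had been listed for its weight on PC4. Cd83, also listed for PC4, had −0.86 ± 0.75 and −0.13 ± 0.59, a smaller fall in LBNs as at the positive members. Map3k5 (−0.66 ± 0.53 and −0.24 ± 0.64) and Gadd45b (−0.42 ± 0.40 and 0.04 ± 0.41) differed in the same direction. Nlrp1a went the other way (−0.67 ± 1.55 and −1.24 ± 1.48). Of the 11 DMRs, 7 were higher in LBNs and 4 lower, beside 1467 of all 3354 DMRs higher.

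**Figure D5:**
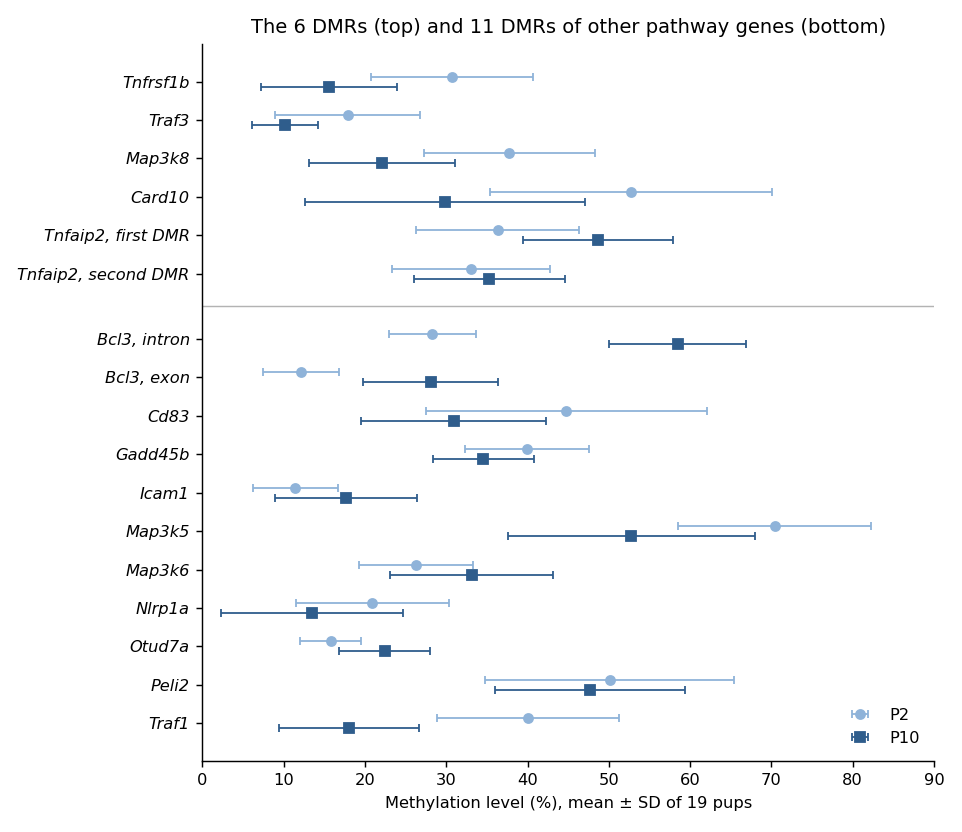
Methylation level (%) on P2 (circles) and P10 (squares), mean ± SD of 19 pups, of the 6 DMRs (top) and of 11 DMRs of 10 other pathway genes (bottom). The intronic Bcl3 DMR moves from 28.3% to 58.5% and Traf1 from 40.1% to 18.0%, and the members lie between 10.2% and 52.7%.

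Genes of the cell types in a swab were examined beside the members. DMRs of 9 leukocyte genes numbered 10, none with a level of 0, and of the 9 tested for age (limma) 4 fell, in Cxcr1, Cxcr4, Runx1 and the intergenic DMR of Wipf1, and 1 rose, in Pik3cd, beside 30.0% and 13.7% of all DMRs. The exonic Wipf1 DMR was at 42.5% and 46.9% and did not pass (adjusted p = 0.374, limma). Mean δ methylation per pup over the 10 DMRs ran from −0.44 to 0.07 in controls (mean −0.17 ± 0.16). In LBNs it ran from −0.35 to 0.32 (mean −0.02 ± 0.20). Of the 10 DMRs, 6 were higher in LBNs, beside 1467 of all 3354 DMRs. The 9 tested for age had been listed for their weight on PC4, as the members were, so these values are descriptions. Over the 19 pups, with the cohort mean removed, this list's mean δ methylation had r = 0.48 with Tnfrsf1b, 0.40 with Map3k8, 0.15 with Card10, −0.09 with Traf3, −0.51 with the first and −0.23 with the second Tnfaip2 DMR. DMRs of 8 epithelial genes numbered 8, of which 7 had been listed for their age weight and went untested. The 1 tested for age, in Epcam, rose from 6.89% to 11.3%. By mean change, 5 of the 8 were lower on P10 (Aqp3, Dsc3, Kazn, Krt42 and Liph) and 3 higher, beside 1946 of 3417 DMRs lower. The epithelial mean, over the 7 DMRs without a level of 0, ran from −1.79 to 0.35 in controls (mean −0.50 ± 0.67) and from −1.21 to 0.63 in LBNs (mean −0.31 ± 0.59), with 6 of the 7 higher in LBNs, and its r with the members lay between −0.35 and 0.28. Epcam, Kazn, Liph and Tfap2c had been listed for PC4 as well. The r values of both lists keep the difference between LBNs and controls, the contrast that chose the members. The part of leukocyte and epithelial shares in the member differences was not tested.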

How the data were processed

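RRBS reads of 38 buccal swab samples were processed by the authors. Per the labels, Trim Galore 0.4.3 and Bismark 0.16.3 were used with rn6. Following the study's methods, CpGs with more than 10 reads were kept, and those different between the swabs of 1 pup (false discovery rate 0.05) were merged within 100 base pairs. Such a CpG had to be shared by at least 2 pups of the control group or of the LBN group. The deposited values are the methylation percent of each of 3417 DMRs in each sample, before correction for cohort. Gene names were taken from the gene field of the study's supplementary tables, whose values were not used. Read depth per value is unknown, so no interval was given for a single value.

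limma 3.58.1 in R 4.3.3 was fitted to all DMRs, to levels as log2((percent + 1)/(100 − percent + 1)) and to δ methylation as log2(P10/P2) over the 3354 DMRs without a level of 0. P values were two-sided and adjusted by the Benjamini-Hochberg method at 0.05. Age was fitted with the pup as a block, because the labels give both swabs of a pup the same name. Where a control and an LBN share a number, it was taken only to name the pups. Mean r of δ methylation was −0.0235 over 5 such pairs (from −0.69 to 0.37) and 0.00262 over 41 others. So few pairs cannot exclude a link. The fits were also run on simulated levels with planted changes. Those samples were drawn independently of each other, so the simulation cannot check the effect of pups that share a dam. The pups stand as replicates, and a shared dam, which was not modelled, would make p values too small.

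The genes named were the members, a list of 10 further pathway genes, 9 leukocyte and 8 epithelial genes, the 3 gene-assigned DMRs nearest to each member in δ methylation, and deposited DMRs within 50 kb. The DMR just outside the weight threshold was named as well. Members and lists were chosen with earlier results of these data known. Alternatives were other pseudocounts (0.5 and 5 percentage points), scales, a filter at a mean level of 10%, another variance model, no covariate, no block, each cohort or experience alone, and each pup left out. The split of the P2 and P10 parts by cohort and by pup left out was chosen after seeing the data.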

Additional observations from a re-analysis of the deposited data

Results flagged for a closer look

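The δ methylation of control C4 of cohort 1 at the first Tnfaip2 DMR was 1.79, while the other 5 controls of that cohort lay between 0.53 and 0.85. The gap to the nearest was 0.742 of the range of the group, beyond the limit of Dixon's test. It was the 1 value set apart in 72 groups of values examined, where chance sets apart about 1 group in 20. Without this pup the difference between LBNs and controls at this DMR was −0.34.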

How the results depend on the processing

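The count of members that changed with age, 3 of 4, was 0 in LBN pups alone, where 182 of 3417 DMRs passed: Map3k8 had −0.65 (adjusted p = 0.292), Card10 −0.70 (adjusted p = 0.107) and the first Tnfaip2 DMR 0.34 (adjusted p = 0.55). Of 30 fits including the one reported, Map3k8 and Card10 passed in 29 and the first Tnfaip2 DMR in 28. With no replicate block, that is without pairing by pup, the count was also 3, and pairing changed no call. Card10 was lower in cohort 2 on P2 in all 26 fits (adjusted p from 0.00401 to 0.0176). With 1 pup left out, the count of members that differed on P2 was 1 to 2, with the second Tnfaip2 DMR added (0.80, adjusted p = 0.0355) without LBN3 of cohort 1. In LBN pups alone, 1 member differed between cohorts in δ methylation, the second Tnfaip2 DMR (0.72, adjusted p = 0.0242), where 24.7% of all DMRs did. Other differences in δ methylation between cohorts, none of which passed, changed sign: Tnfrsf1b with the change in percentage points (3.26) and in control pups alone (0.0911), Traf3 in control pups alone (−0.77) and the first Tnfaip2 DMR in LBN pups alone (0.0834). With each pup left out in turn they ran from −0.37 to 0.11 at Tnfrsf1b, −0.0536 to 0.72 at Traf3, −0.32 to 0.0737 at Map3k8 and −0.11 to 0.10 at the second Tnfaip2 DMR. LBN minus control δ methylation moved beyond the SD between pups at Traf3 in cohort 2 alone (2.56) and at the second Tnfaip2 DMR in cohort 1 alone (−0.78) and cohort 2 alone (0.67, reversed). Without LBN3 and LBN12 of cohort 1 it was 1.07 at Tnfrsf1b, 1.46 at Traf3, 0.40 at Map3k8, 0.88 at Card10, −0.27 at the first and −0.08 at the second Tnfaip2 DMR. The causes were not tested. Read depth is unknown, so another coverage minimum could not be tried.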
